A study of Homo sapiens with 24 samples.

Results

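The etoposide response of ATRX knockout cells was compared with that of their WT control in 12 of the 24 RNA-seq libraries of the study. The measure was the interaction, which is the log2 response of the knockout to etoposide minus the log2 response of WT. A negative interaction therefore means that RNA rose less, or fell more, in the knockout than in WT, and a value of −1 is a 2-fold difference between both responses. All 16371 genes that passed a filter on low counts, of 57736 in the table, were tested. Many of the genes named below were picked for a low interaction p or a large interaction, by rules given at the end.

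The cells were U87-T, the human glioblastoma line U87 transduced with TERT, the catalytic subunit of telomerase. The methods of the study describe the control line, U87-T sgCon, as carrying an empty Cas9 lentiviral vector. The results of the study call the RNA-seq control parental U87-T cells, and the labels call it WT. The 4 groups of 3 libraries were WT cells in control conditions, WT cells with etoposide, ATRX_KO cells in control conditions and ATRX_KO cells with etoposide. The labels call the control cells untreated, whereas the methods of the study name DMSO as the vehicle, and the dose and duration of etoposide for these libraries are not given in the sources used here. ATRX_KO is a single-cell clone isolated after CRISPR editing and long passage, with features of telomerase-independent telomere lengthening (ALT). The loss of ATRX, the selection of 1 clone and the ALT-like state hence cannot be told apart. A parallel DAXX series, with its own WT libraries, was used only as a comparison.

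ATRX is a chromatin remodeller that works with DAXX to deposit the histone variant H3.3 at telomeres and heterochromatin. Etoposide traps topoisomerase II on cut DNA and thereby causes double-strand breaks. These breaks activate the kinase ATM and stabilise p53, a transcription factor that directly induces genes for cell cycle arrest, apoptosis, repair and its own feedback. Most repression of cell cycle genes downstream of p53 is indirect, as p21, the product of CDKN1A, lets the DREAM complex silence genes of replication and mitosis.

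Library totals ranged from 10124817 to 13298557 counts, and a level of 0.2164 to 0.3007 CPM (counts relative to the scaled library total) stood for 3 counts, which is what a count of 0 still permits. This limit covers counting error only. The replicates are separate libraries, but nothing says that they came from separate cultures, so p-values measure the spread between libraries, which may be technical. The glioblastoma markers VIM, CD44, NES and S100A6 were present in every library, while S100A4 and CHI3L1 were low, at most 11.03 and 7.86 CPM. Of 15 markers of other cell types in the table, 8 had 3 counts or fewer in every library and 3 were at 0. Their summed level was 20.04 to 25.4 CPM in WT control, 22.3 to 25.5 with etoposide, 7.54 to 9.56 in ATRX_KO control and 8.09 to 11.1 with etoposide, and it came mostly from MBP. In these bulk libraries, fewer cells of a type and less RNA per cell cannot be told apart.

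The targeted gene was checked first. ATRX (ENSG00000085224, chrX:76760358-77041719 in GRCh37, minus strand) was at 186, 192 and 196 CPM in WT control and at 87.4, 78.0 and 76.0 CPM in ATRX_KO control. With etoposide it was at 170.4, 173 and 180.4 CPM in WT and at 60.4, 79.6 and 70.0 CPM in the knockout. All knockout libraries lay below all WT libraries, and the difference in control was −1.25 on the log2 scale (adjusted p = 9.37e-09). The reads come from the 3′ ends of transcripts and do not show the edit itself. The interaction of ATRX was −0.07 ± 0.13 (SE, adjusted p = 0.779), so that no change of this difference with etoposide was detectable. DAXX, its partner, was at 33.7, 38.8 and 34.0 CPM in WT control and at 20.9, 21.7 and 19.04 CPM with etoposide. The knockout libraries were at 43.2, 45.2 and 45.0 CPM, and at 46.1, 38.2 and 40.3 CPM with etoposide. In WT the treated libraries lay apart from the controls and in ATRX_KO they overlapped, with an interaction of 0.69 ± 0.14 (adjusted p = 0.00266).

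Promoter matches to the p53 consensus are shown first, because p53 is a central transcription factor of the response to DNA breaks. The promoter windows of RefSeq (GRCh38.p14, from 250 bases before to 50 bases after the start site) were matched for 11204 of the genes tested and searched on both strands for the full p53 site, a pair of p53 consensus elements with at most 13 bases between them. The site was found in 10 of 35116 promoters of the table (0.0285%), in 5 of the 11204 genes tested (0.0446%), and in 3 of 757 promoters of genes with a weaker induction. It was found in 0 promoters of each of the 6 lists of p53 targets, which had 4 to 14 matched promoters each, so the printed sites do not represent those targets. A match is a description of letters and not evidence of binding. The 5 sites are printed with flanks of up to 30 bases, in the direction of the gene, and capitals mark the p53 site.
PURPL, chr5:27472135-27472214, plus strand: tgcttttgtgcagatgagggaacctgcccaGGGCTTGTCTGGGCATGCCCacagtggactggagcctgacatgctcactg
LNCTAM34A, chr1:9182114-9182193, plus strand: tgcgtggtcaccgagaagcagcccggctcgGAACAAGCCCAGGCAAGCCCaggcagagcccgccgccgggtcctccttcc
PTCHD4, chr6:48111198-48111247, minus strand: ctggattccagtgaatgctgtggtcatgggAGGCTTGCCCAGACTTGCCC
MCC, chr5:113488465-113488551, minus strand: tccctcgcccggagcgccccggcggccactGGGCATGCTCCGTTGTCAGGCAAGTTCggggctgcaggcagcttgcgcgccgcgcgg
DYNC2H1, chr11:103109220-103109311, plus strand: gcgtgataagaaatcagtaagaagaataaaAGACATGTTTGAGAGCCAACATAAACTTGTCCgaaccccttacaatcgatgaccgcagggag
The site lay at −127 to −108 from the start of PURPL, −60 to −41 from that of LNCTAM34A and −20 to −1 from that of PTCHD4. In MCC and DYNC2H1 bases separate both elements. PURPL is also a member of a list below, and the other 4 were added for their sites after their values were seen.

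The genes with a p53 site in the promoter showed both outcomes. PURPL, a noncoding RNA that p53 induces, was at 1.32, 2.03 and 0.338 CPM in WT control and rose to 22.3, 24.3 and 25.96 CPM. In ATRX_KO it went from 4.95, 7.02 and 6.82 CPM to 32.1, 33.2 and 27.9 CPM. In both conditions all knockout libraries thus lay above all WT libraries. The log2 rise was smaller in the knockout, with an interaction of −1.98 ± 0.36 (adjusted p = 0.00156). LNCTAM34A, the noncoding RNA of the miR-34a host locus, went from 1.77 ± 0.216 to 37.8 ± 2.78 CPM (SD, n = 3) in WT and from 2.28 ± 0.732 to 21.9 ± 2.45 CPM in ATRX_KO. Here the control libraries overlapped and the knockout ended lower, with an interaction of −1.14 ± 0.28 (adjusted p = 0.0105), which became −0.86 (adjusted p = 0.0524) without ATRX_KO control replicate 2. PTCHD4, a patched-related gene, was called only narrowly (−1.75 ± 0.57, adjusted p = 0.0475) and had 4 to 51 counts per library. Its call was lost in 11 of 12 fits that left out 1 library, with values from −2.07 to −1.12 (the latter without WT etoposide replicate 2, adjusted p = 0.159). MCC (−0.44, adjusted p = 0.0785) and DYNC2H1 (−0.34, adjusted p = 0.256) were not called.

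Across all genes the interaction was called for 2619 of 16371 (16.0%) at an adjusted p under 0.05, with 1250 lower (7.64%) and 1369 higher (8.36%). The median interaction of all genes tested was −0.01, so the contrast was centred. Among the called genes, 426 were lower and 238 higher by at least 2-fold. Etoposide changed 61.5% of the genes in WT and 49.5% in ATRX_KO. It induced 5190 genes in WT (31.7%) and 3985 in ATRX_KO (24.3%), and it repressed 4882 (29.8%) and 4124 (25.2%). Of these, 6778 genes were called in the same direction in both cell types, 3195 only in WT, 1232 only in the knockout and 99 in opposite directions. The libraries of ATRX_KO and WT did not overlap for 50.9% of the genes in control and 54.8% with etoposide, so a lack of overlap in a single gene is common here.

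The called genes were sorted by their response, and both large classes were losses of response. In 1045 genes the induction was weaker in ATRX_KO, where the median log2 response was 1.27 in WT but 0.43 in the knockout, and in 437 of them the knockout response was not called. In 1193 genes the repression was weaker, with medians of −1.21 and −0.53, and 353 had no called response in the knockout. These classes hold 20.1% of the genes induced and 24.4% of the genes repressed in WT. The other classes were small, with 32 genes of stronger induction, 43 of stronger repression, 99 of reversed response and 200 that responded in ATRX_KO only. A further 7 genes were called for the interaction with neither response called. Leaving out 1 library gave 739 to 1104 genes of weaker induction and 816 to 1303 of weaker repression. The classes were made from the tested values and describe them.

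**Figure D1:**
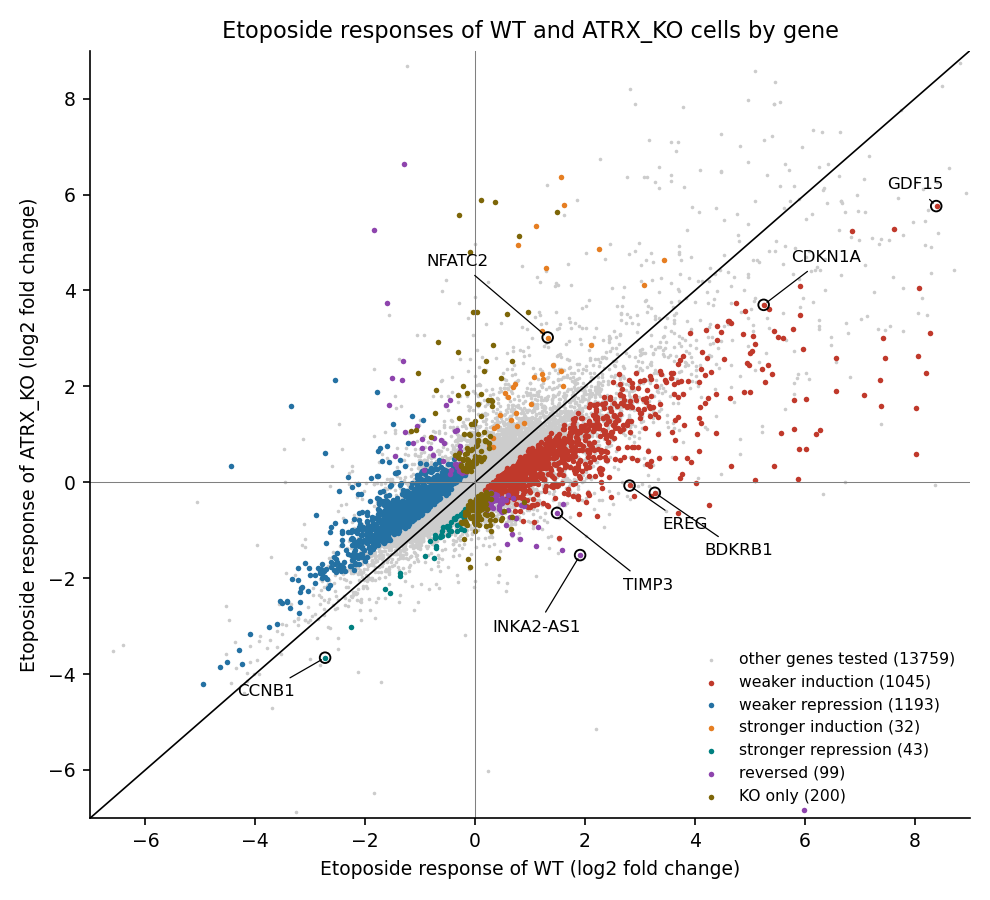
Etoposide response of WT (x axis) and of ATRX_KO (y axis), both as log2 fold change, for each gene tested, coloured by class, with 8 genes ringed. The diagonal marks equal responses, and 26 genes lie outside the axes of −7 to 9. Genes of weaker induction lie below the diagonal on the right, and genes of weaker repression lie above it on the left.

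The difference arose at both ends of the response. Among the genes of weaker induction, ATRX_KO was already higher than WT in control for 579 and lower with etoposide for 601, against 20.8% higher in control (41.8% in either direction) and 22.9% lower with etoposide (45.9% in either direction) among all genes tested. Both held for 152 genes. The median difference between ATRX_KO and WT was 0.42 in control and −0.40 with etoposide. Among the genes of weaker repression, the knockout was lower in control for 544 (21.0% of all genes) and higher with etoposide for 737 (23.0% of all genes), with medians of −0.23 and 0.42. These genes were chosen by the interaction, which equals the difference with etoposide minus that in control. An excess over all genes in these directions is therefore built in, and the counts are a description. Within these classes, a weaker induction often came with a higher level before the drug, and a weaker repression often with a lower one. The 12 genes plotted by library show these forms.

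**Figure D2:**
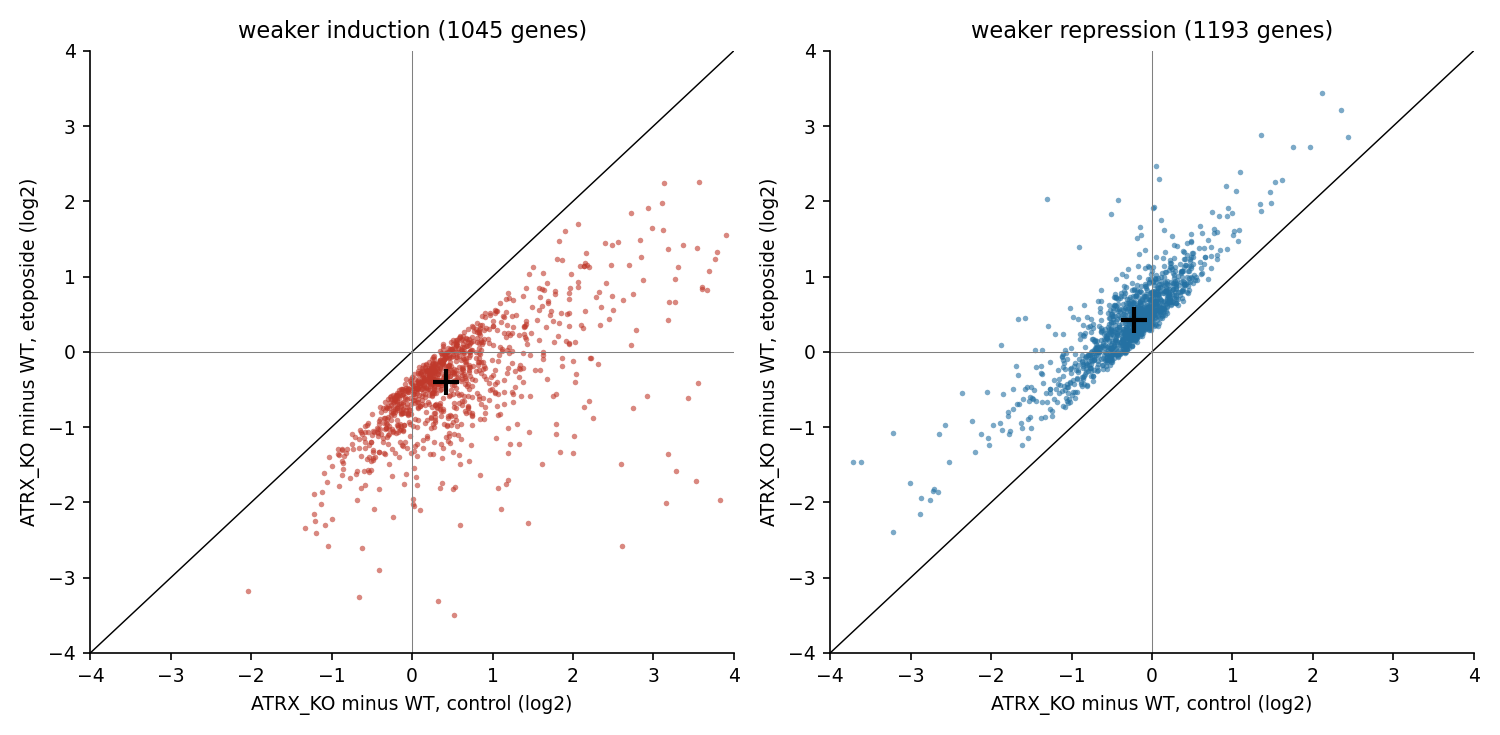
Difference between ATRX_KO and WT in control (x axis) and with etoposide (y axis), in log2, for the genes of weaker induction (left) and weaker repression (right). The cross marks the medians, 0.42 and −0.40 on the left and −0.23 and 0.42 on the right, and 59 genes lie outside the axes of ±4.

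The size of the loss was also measured on genes chosen in other libraries, because genes picked by their WT response in the same libraries would favour a loss. The WT libraries of the DAXX series gave 1875 genes induced at least 2-fold. In the ATRX series their median response was 1.57 in WT and 1.11 in ATRX_KO, so that 70.4% ± 1.65 (SD over the 3 treated knockout libraries) of the induction was retained. Of these genes, 506 had a called smaller response in ATRX_KO and 18 a larger one. The 1705 genes repressed at least 2-fold there had medians of −1.40 and −0.96, with 68.4% ± 3 retained, and 602 were called smaller and 11 larger. Most of the response to etoposide was hence present in the knockout, in both directions.

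The p53 targets often lost part of their induction. Of 60 tested members of the p53 lists, 53 rose in WT and 49 in ATRX_KO, and the interaction was lower for 32 and higher for 2, against 7.64% and 8.36% of all genes. The median response was 2.26 in WT and 1.54 in the knockout, and the median interaction was −0.66. Of the 60, 31 were in the class of weaker induction, which held 20.1% of all genes induced in WT. The 1875 genes induced at least 2-fold in the WT of the DAXX series had medians of 1.57 and 1.11. Whether p53 targets lost a larger share of their response than other induced genes was not tested. In control, ATRX_KO was higher than WT for 20 of the 60 p53 targets and lower for 16, against 20.8% and 21.0% of all genes. With etoposide it was lower for 39 and higher for 4, against 22.9% and 23.0% of all genes. The p53 targets were therefore spread in both directions before the drug and mostly lower in the knockout after it. The interaction counts of all further lists are to be read against the same 7.64% lower and 8.36% higher among all genes. Counts of genes that rose or fell are to be read against 31.7% and 29.8% of all genes in WT. In ATRX_KO these shares were 24.3% and 25.2%.

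Among the feedback genes of p53 the interaction was lower for 2 of 7, with a median of −0.10. MDM2 (chr12:69201957-69239324 in GRCh37), the ubiquitin ligase that degrades p53, was at 48.8, 56.2 and 53.02 CPM in WT control and at 954, 949.7 and 1003 CPM with etoposide. Levels in ATRX_KO were 70.6, 69.2 and 61.4 CPM in control and then 626, 625 and 566 CPM. The knockout libraries were all higher in control and all lower with etoposide, with an interaction of −1.03 ± 0.11 (adjusted p = 1.92e-05). PPM1D, a phosphatase that reverses damage signalling, was lower in the knockout in both conditions. It went from 16.9 ± 1.65 to 64.6 ± 0.971 CPM in WT and from 9.18 ± 1.68 to 20.8 ± 0.571 CPM in ATRX_KO (SD, n = 3), and the interaction was −0.76 ± 0.17 (adjusted p = 0.00516).

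Among 9 genes of cell cycle arrest all rose in both cell types, and the interaction was lower for 5 and higher for 1. CDKN1A (chr6:36644237-36655114 in GRCh37), which encodes the CDK inhibitor p21, was at 156, 158 and 162 CPM in WT control and at 6059, 6006 and 6054 CPM with etoposide. In ATRX_KO it was at 227, 213 and 197 CPM and at 2828, 2621 and 2849 CPM. The knockout began above WT and ended well below it, and the induction, 5.25 against 3.70 in log2, differed by −1.55 ± 0.09 (adjusted p = 7.48e-08). GADD45A, a stress sensor that inhibits CDK1, reached 1438, 1329 and 1433 CPM in WT and 869, 976 and 682 CPM in ATRX_KO, from 57.3 ± 4.34 and 82.3 ± 8.49 CPM (SD, n = 3). Its interaction was −1.25 ± 0.16 (adjusted p = 6.98e-05). ZNF385A, a p53 cofactor that favours arrest, followed the same form at a lower level, reaching 22.0 ± 4.10 CPM in WT and 11.2 ± 0.982 CPM in the knockout, with an interaction of −1.72 ± 0.29 (adjusted p = 0.00097). BTG2, an antiproliferative gene, had at most 1.00 CPM in each control library, down to 3 counts, and reached 67.8, 69.8 and 67.2 CPM in WT but 28.8, 26.5 and 24.6 CPM in ATRX_KO. Since its controls were so low, its interaction was imprecise (−1.62 ± 0.43, adjusted p = 0.018), and its call was lost when any of 3 libraries was left out, at −1.36 (adjusted p = 0.055) without WT control replicate 3, −1.26 (adjusted p = 0.116) without ATRX_KO control replicate 2 and −1.51 (adjusted p = 0.056) without ATRX_KO control replicate 3.

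Of 13 apoptosis targets, 12 rose in each cell type, and the interaction was lower for 8 and higher for 1. BBC3, which encodes the BH3-only protein PUMA, was at 11.2, 9.75 and 10.4 CPM in WT control and at 177, 191 and 183 CPM with etoposide. In ATRX_KO it went from 23.0, 23.98 and 24.8 CPM to 177, 149.96 and 149 CPM. Here the difference lay mainly in the control cells, and the interaction was −1.41 ± 0.13 (adjusted p = 4.08e-06). TP53INP1, a p53 cofactor that promotes cell death, rose from 4.93 ± 0.750 to 201 ± 7.83 CPM in WT and from 11.9 ± 0.676 to 146 ± 13.5 CPM in the knockout (−1.74 ± 0.15, adjusted p = 3.42e-06). The death receptor FAS ended at 62.9, 62.1 and 61.1 CPM in WT and at 40.5, 32.6 and 29.7 CPM in ATRX_KO, with no overlap (−1.40 ± 0.19, adjusted p = 0.000146). The decoy receptor TNFRSF10C, which binds the death ligand TRAIL without signalling, was also less induced (−2.48 ± 0.27, adjusted p = 2.29e-05), so receptors of opposite function moved together. BAX, the pore-forming effector, was not called (−0.49 ± 0.17, adjusted p = 0.0616), while it was called at −0.50 (adjusted p = 0.0495) among genes with at least 10 counts in every library and at −0.62 (adjusted p = 0.0112) without ATRX_KO etoposide replicate 1.

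Of 5 repair targets, the interaction was lower for 3. XPC, which recognises bulky lesions in nucleotide excision repair, was at 38.9, 37.3 and 37.1 CPM in WT control and at 240.4, 255 and 275 CPM with etoposide. The knockout libraries were at 57.1, 56.6 and 48.3 CPM and at 141, 180.0 and 159 CPM, with an interaction of −1.20 ± 0.13 (adjusted p = 2.66e-05). DDB2, its partner in damage recognition, was lower in the knockout before and after the drug, ending at 517 ± 16.4 CPM in WT and 245 ± 12.9 CPM in ATRX_KO (−0.65 ± 0.12, adjusted p = 0.00154). RRM2B, the p53-induced subunit of ribonucleotide reductase, ended at the same level, 144 ± 7.55 and 142 ± 22.3 CPM, and its interaction of −0.66 ± 0.15 (adjusted p = 0.00638) came with a higher control level in the knockout.

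Metabolic and autophagy targets of p53 had a lower interaction in 6 of 10, with a median of −0.44. FDXR, a mitochondrial ferredoxin reductase, was at 20.9, 23.3 and 21.5 CPM in WT control and 547, 542 and 519 CPM with etoposide, against 21.5, 22.8 and 14.6 CPM and 168, 212 and 228 CPM in ATRX_KO. Control levels overlapped and treated levels did not (−1.24 ± 0.19, adjusted p = 0.00037). The sestrins, which restrain mTORC1, were also less induced, SESN2 by −1.28 ± 0.10 (adjusted p = 1.33e-06) and SESN1 by −1.04 ± 0.24 (adjusted p = 0.00682).

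Among 16 secreted and other targets, the interaction was lower for 8, and the largest loss was in GDF15 (chr19:18485541-18499986 in GRCh37), a stress-induced cytokine. It was at 12.5, 12.7 and 12.9 CPM in WT control and at 74.9, 88.5 and 87.8 CPM in ATRX_KO control. With etoposide it reached 4361, 4153 and 4306 CPM in WT and 4960.5, 4459 and 4178 CPM in the knockout. The treated levels overlapped, and the difference behind the interaction of −2.64 ± 0.12 (adjusted p = 1.09e-09) was in the control cells. PHLDA3, an inhibitor of AKT at the membrane, showed the opposite form. Its libraries overlapped in control, at 62.9 ± 4.59 and 65.8 ± 2.77 CPM, and ended at 598, 629 and 614 CPM in WT but 275, 258 and 256 CPM in ATRX_KO (−1.29 ± 0.10, adjusted p = 1.14e-06). CYFIP2, a p53-induced member of the WAVE actin complex, crossed over, from 30.9 ± 0.908 to 193 ± 4.89 CPM in WT and from 51.9 ± 1.55 to 109 ± 4.76 CPM in the knockout (−1.56 ± 0.10, adjusted p = 9.09e-08).

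**Figure D3:**
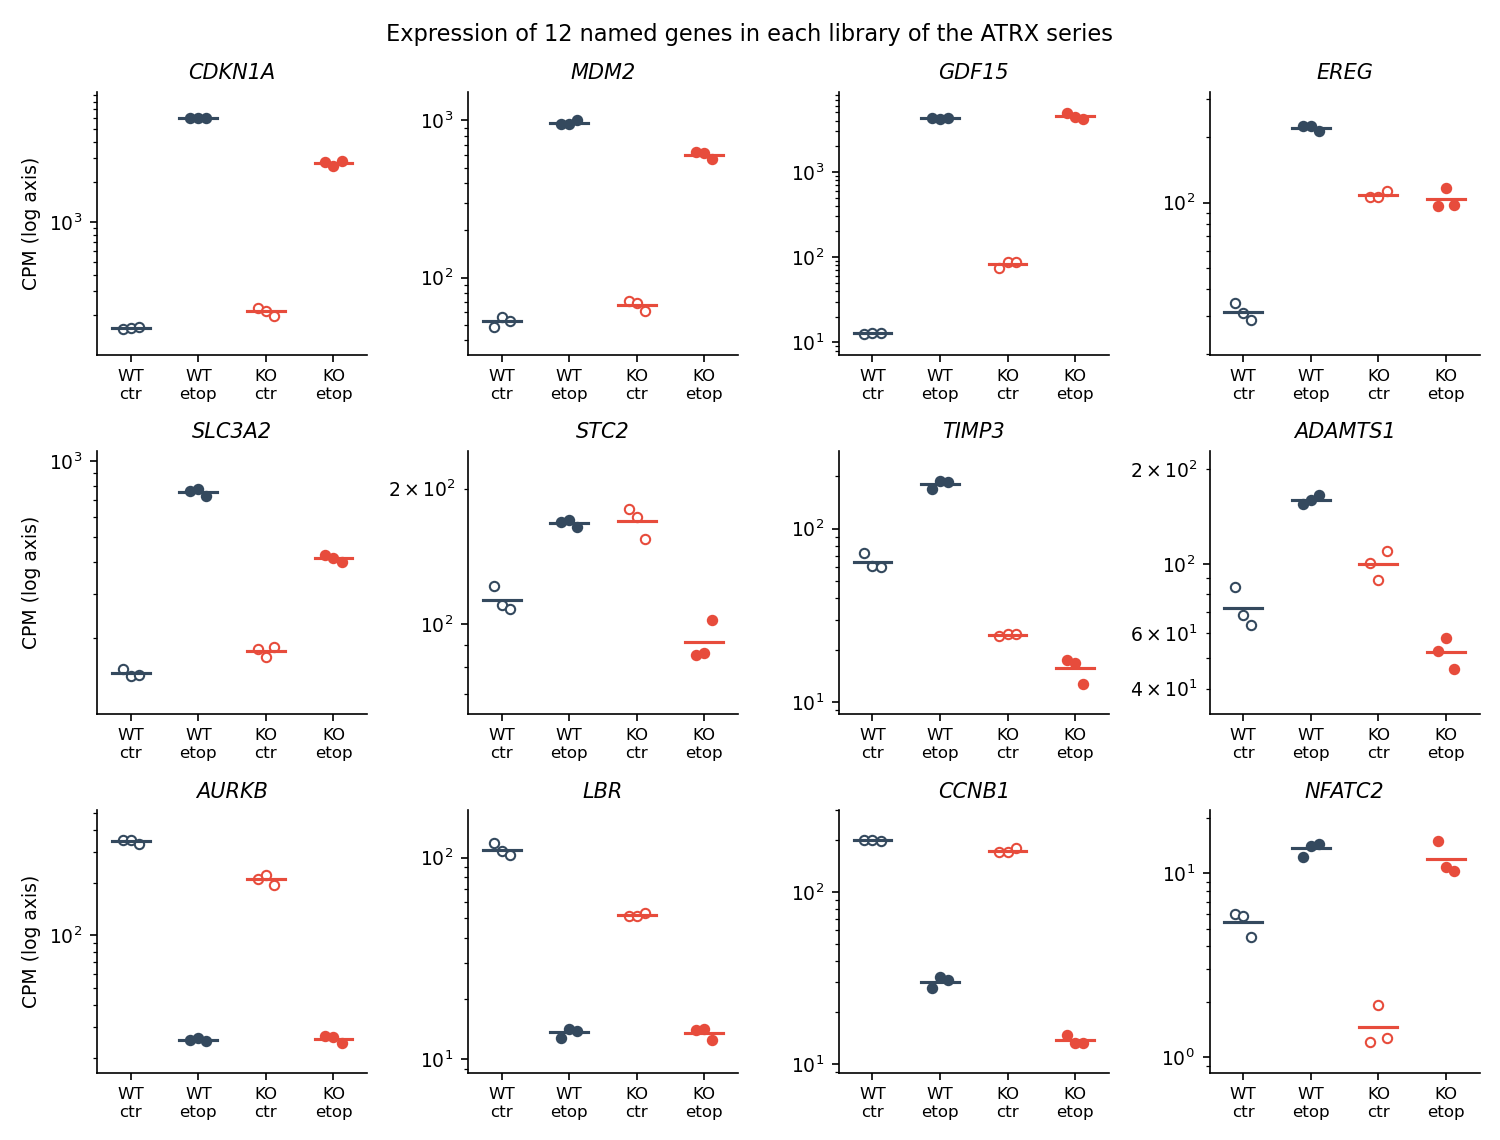
Expression in CPM on a log axis for 12 named genes in each of the 12 libraries, with open points for control, filled points for etoposide and lines for the group means. CDKN1A and MDM2 ended lower in ATRX_KO, GDF15 began higher, and STC2, TIMP3 and ADAMTS1 moved in opposite directions.

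Among genes with at least 10 counts in every library and 10 CPM in a group, the largest losses of induction lay mostly outside the p53 lists. BDKRB1, the inducible kinin receptor, was at 2.02, 2.20 and 2.28 CPM in WT control and at 22.3, 21.4 and 19.4 CPM with etoposide. Levels in ATRX_KO were 35, 64.7 and 52.6 CPM in control and then 34.1, 42.9 and 53.6 CPM, above WT throughout and without a called response (−3.49 ± 0.32, adjusted p = 4.55e-06). EREG, a ligand of the EGF receptor, rose from 34.6, 31.1 and 28.7 to 224, 224 and 214 CPM in WT and stayed at 106, 107 and 113, then 96.1, 117 and 97.2 CPM in ATRX_KO. Its interaction was −2.88 ± 0.13 (adjusted p = 1.09e-09). RRAD, a small GTPase that p53 can induce, reached 1534, 1565 and 1569.8 CPM in WT and 669, 543 and 637 CPM in ATRX_KO. In control it was at 25.0 ± 1.69 CPM in WT and at 47.2, 110.3 and 109.9 CPM in the knockout, where replicate 1 stood apart (−3.17 ± 0.30, adjusted p = 5.56e-06). DEPP1, a FOXO-induced autophagy regulator, also had a low replicate 1 in ATRX_KO control, at 2.78 CPM against 7.43 and 6.58 CPM, and an interaction of −3.34 ± 0.37 (adjusted p = 2.35e-05). Neither call was lost without any 1 library.

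In the list of the integrated stress and unfolded protein response, the interaction was lower for 9 of 21 genes. This compares with 7.64% of all genes, and 12 of the 21 were not called. The integrated stress response, through the transcription factor ATF4, raises amino acid transporters, chaperones and the factor CHOP when translation is limited. The list mixes its genes with those of the unfolded protein response, so its counts and medians do not belong to 1 pathway. Of the 21 tested genes, 15 rose and 3 fell in WT, whereas 12 rose and 7 fell in ATRX_KO, and the median interaction was −0.44. The 9 lower genes were 6 of weaker induction, 1 reversed and 2 that responded in ATRX_KO only. SLC3A2 (chr11:62623476-62656352 in GRCh37), the heavy chain of amino acid transporters, was at 151, 142 and 143 CPM in WT control and at 761, 774 and 729 CPM with etoposide. In ATRX_KO it was at 181, 168 and 184 CPM and at 426, 416 and 399.5 CPM. The knockout was higher in control and lower with the drug, with an interaction of −1.16 ± 0.09 (adjusted p = 1.35e-06). DDIT3, which encodes CHOP, reached 724 ± 12.7 CPM in WT and 443 ± 76.6 CPM in ATRX_KO (−1.33 ± 0.16, adjusted p = 4.89e-05). ATF4 itself overlapped in control, at 171 ± 9.37 and 166 ± 25.3 CPM, and reached 616 ± 17.7 and 346 ± 53.3 CPM (−0.79 ± 0.15, adjusted p = 0.00249). HSPA5, the chaperone of the endoplasmic reticulum, rose in both, by 1.00 and 0.93, with an interaction of −0.07 ± 0.10 (adjusted p = 0.696).

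Of 27 ribosome biogenesis genes, the interaction was lower for 11 and higher for 2, against 7.64% and 8.36% of all genes, with a median of −0.29. In this list 8 genes rose and 14 fell in WT, and 2 rose and 19 fell in ATRX_KO. RRP12, a factor of subunit export, was at 55.2, 54.2 and 53.5 CPM in WT control and at 186, 167 and 191 CPM with etoposide. The knockout libraries were at 69.5, 68.0 and 55.2 CPM and at 116, 97.8 and 114 CPM (−0.98 ± 0.13, adjusted p = 0.000144). POLR1A, the largest subunit of RNA polymerase I, rose in WT from 34.95 ± 3.90 to 65.1 ± 4.30 CPM and was at 42.6 ± 1.05 and 39.7 ± 3.27 CPM in the knockout (−1.0 ± 0.13, adjusted p = 0.000126). RRP9, a component of the U3 snoRNP, had the same form (−0.70 ± 0.11, adjusted p = 0.000698), whereas nucleolin (NCL) fell in both, by 0.96 and 0.91. The number of lower genes ranged from 4 without WT etoposide replicate 2 to 11. For cytosolic ribosomal proteins, edgeR called 0 of 59 for the interaction, with 10 at an unadjusted p under 0.05, 2 called lower by DESeq2, and 7 lower without ATRX_KO etoposide replicate 1. Their median response was 0.38 in WT and 0.24 in the knockout.

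Noncoding RNAs linked to damage and lysosomal genes also held weaker inductions. NEAT1, the scaffold of paraspeckles, rose from 199.9, 179 and 169 CPM to 978, 1181 and 808 CPM in WT and from 737, 718 and 664 CPM to 1498, 1634 and 1972 CPM in ATRX_KO. It was higher in the knockout throughout, but rose less, with an interaction of −1.17 ± 0.17 (adjusted p = 0.000265). MALAT1, a nuclear RNA of speckles, was called at −0.38 ± 0.10 (adjusted p = 0.0196), and its call was lost without some single libraries, for example at −0.36 (adjusted p = 0.0559) without WT control replicate 2. Of 8 such RNAs the interaction was lower for 3, and for 2 without WT control replicate 2 and 5 without ATRX_KO etoposide replicate 1. Of 26 lysosome and autophagy genes it was lower for 4 and higher for 2, against 7.64% and 8.36% of all genes, and the higher count ranged from 0, for example without WT control replicate 1, to 3 without ATRX_KO control replicate 3. SQSTM1, the autophagy receptor p62, rose by 1.61 in WT and by 0.64 in ATRX_KO, where it was higher in control by 2.15 on the log2 scale (−0.97 ± 0.11, adjusted p = 4.21e-05). GABARAPL1, which coats autophagosomes, followed it (−0.78 ± 0.16, adjusted p = 0.00387).

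BCYRN1, a short RNA polymerase III transcript, took 3.81 to 5.43% of all counts in WT control, 9.24 to 9.68% in WT with etoposide, 3.08 to 4.20% in ATRX_KO control and 4.36 to 5.11% in ATRX_KO with etoposide. Its interaction was −0.70 ± 0.16 (adjusted p = 0.00813). Under every alternative scaling tried, the median interaction of all genes stayed between −0.02 and 0.05.

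**Figure D4:**
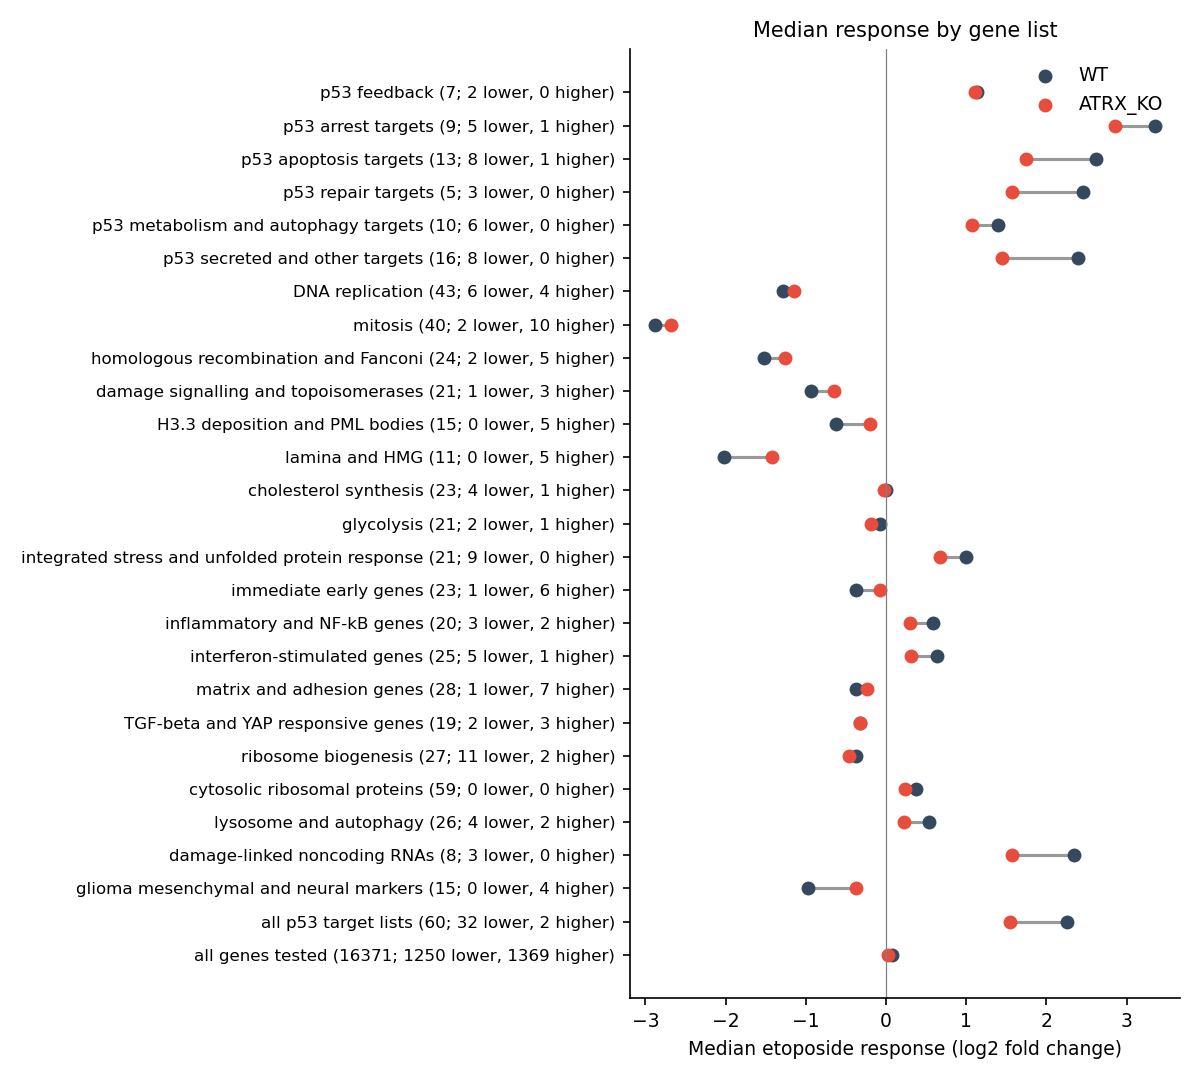
Median etoposide response in log2 (x axis) of each functional list in WT and ATRX_KO, with the number of genes tested and the number called lower or higher for the interaction in the label. The medians of the p53 lists lay higher in WT, and those of the lamina and HMG list, at −2.02 in WT and −1.42 in ATRX_KO, lay lower in WT.

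Genes of weaker repression were ranked among those with at least 10 counts in every library and 10 CPM in a group. The largest interactions were those of LPAR1, FZD7, PTX3, CALB2 and PTGER2. LPAR1, the receptor of lysophosphatidic acid, was at 39.4, 40.9 and 34.4 CPM in WT control and at 7.203, 9.06 and 7.92 CPM with etoposide. Levels in ATRX_KO were 2.43, 4.01 and 2.86 CPM in control and then 2.22, 2.67 and 3.76 CPM, below WT throughout (2.15 ± 0.28, adjusted p = 0.000102). FZD7, a WNT receptor, and CALB2, a calcium-binding protein, had the same form, with interactions of 1.88 ± 0.33 (adjusted p = 0.00118) and 1.61 ± 0.26 (adjusted p = 0.000716) and control levels in ATRX_KO of 1.41 ± 0.434 and 2.35 ± 0.735 CPM. Their lowest libraries had 11 and 19 counts. In LPAR1, FZD7 and CALB2 the knockout thus had little RNA before the drug, and whether this limited the fall was not tested. PTX3, a pentraxin of innate immunity, differed, as its libraries overlapped in control, at 26.9 ± 1.91 and 23.7 ± 4.12 CPM, and ended at 3.88, 5.34 and 4.51 CPM in WT against 14.9, 13.4 and 10.99 CPM in ATRX_KO (1.70 ± 0.23, adjusted p = 0.000125). PTGER2, a prostaglandin E2 receptor, was called at 1.59 ± 0.28 (adjusted p = 0.00136).

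The lamina and HMG list covers proteins of the nuclear envelope and chromatin architecture. Some of them fall in arrested cells, so the share that fell depends on the choice of the list. In each cell type 1 of its genes rose. Of 11 genes, 8 fell in each cell type, against 29.8% of all genes in WT and 25.2% in ATRX_KO, and the interaction was higher for 5, against 8.36% of all genes, with medians of −2.02 in WT and −1.42 in ATRX_KO. LBR (chr1:225589204-225616627 in GRCh37), the receptor that ties heterochromatin to lamin B, was at 118, 107 and 103 CPM in WT control and at 12.8, 14.2 and 13.8 CPM with etoposide. In ATRX_KO it was at 51.5, 51.4 and 52.99 CPM and at 13.96, 14.1 and 12.5 CPM. The treated libraries overlapped, and the difference was in the controls (1.06 ± 0.13, adjusted p = 4.72e-05). HMGB1, a DNA-bending protein, fell from 718 ± 18.1 to 178 ± 9.39 CPM in WT and from 523 ± 8.39 to 195 ± 16.7 CPM in the knockout (0.59 ± 0.10, adjusted p = 0.00108). TMPO, which binds lamins, was lower in ATRX_KO in control and higher with etoposide (0.74 ± 0.12, adjusted p = 0.000583). LMNB1 fell 4.35 in WT and 3.88 in the knockout and was not called (0.48 ± 0.23, adjusted p = 0.176), except without ATRX_KO control replicate 3 (0.66, adjusted p = 0.0182).

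Glioma markers and H3.3 genes were similar. Of 15 glioma mesenchymal and neural markers, 9 fell in WT and 7 in ATRX_KO, and the interaction was higher for 4, namely CD44, NES, TUBB3 and VIM. CD44, a hyaluronan receptor, fell by 1.32 in WT and by 0.75 in ATRX_KO (0.57 ± 0.09, adjusted p = 0.000756). NES, an intermediate filament of neural progenitors, fell by 1.90 and by 1.13 (0.78 ± 0.20, adjusted p = 0.0144). The call of VIM (0.57 ± 0.16, adjusted p = 0.025) was lost without some single libraries, for example at 0.52 (adjusted p = 0.0655) without WT control replicate 1. Of 15 genes of H3.3 deposition and PML bodies, the interaction was higher for 5, among them DAXX, NAP1L1, a histone chaperone, at 0.42 ± 0.10 (adjusted p = 0.0105), and SUMO2, the modifier that concentrates in PML bodies, at 0.67 ± 0.18 (adjusted p = 0.0193). This count was 3 without WT control replicate 1.

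Matrix, adhesion and immediate early genes held further cases of weaker repression. Of 28 matrix and adhesion genes the interaction was higher for 7 and lower for 1, and it was higher for 3 to 6 when 1 library was left out, with 3 without WT control replicate 2. ITGB1, the common beta chain of matrix integrins, was at 428, 413 and 394 CPM in WT control and at 145, 142 and 141 CPM with etoposide. The knockout libraries were at 329, 346 and 365 CPM and at 183, 196 and 206 CPM, so both ends lay inside those of WT (0.70 ± 0.10, adjusted p = 0.000201). ITGA5, its partner in the fibronectin receptor, was called at 0.64 ± 0.11 (adjusted p = 0.000817), and fibronectin (FN1) was not called at 0.31 ± 0.15 (adjusted p = 0.163). MMP1, a collagenase at 2 to 79 counts, was called narrowly (1.33 ± 0.43, adjusted p = 0.0458) and not by DESeq2 (adjusted p = 0.0714). Of 23 immediate early genes the interaction was higher for 6, and it was higher for 3 without WT control replicate 1. JUN, a subunit of AP-1, fell from 387, 356 and 329 CPM to 181, 206 and 189.9 CPM in WT and from 418, 425 and 445 CPM to 348, 388 and 348 CPM in ATRX_KO (0.65 ± 0.11, adjusted p = 0.00102). IER2 (0.42 ± 0.10, adjusted p = 0.00653) and SPRY4, an inhibitor of growth factor signalling (0.99 ± 0.26, adjusted p = 0.0145), were called in the same direction. ATF3, which is strongly induced by stress, rose by 4.21 and 3.97 and was not called (−0.25 ± 0.16, adjusted p = 0.34).

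The mitotic programme fell deeply in both cell types. Of 40 mitosis genes, 39 fell in WT and 40 in ATRX_KO, with medians of −2.88 and −2.68, and the interaction was higher for 10 and lower for 2. In control, ATRX_KO was below WT for 28 of them, against 21.0% of all genes. AURKB, a kinase of the chromosomal passenger complex, was at 349.6, 349 and 332 CPM in WT control and at 25.2, 25.8 and 25.1 CPM with etoposide. Levels in ATRX_KO were 211, 221 and 195 CPM in control and then 26.5, 26.4 and 24.4 CPM, so both reached the same low level (0.74 ± 0.11, adjusted p = 0.000222). ECT2, a cytokinesis factor, ended higher in the knockout, at 21.6 ± 0.481 against 14.8 ± 1.09 CPM (0.96 ± 0.12, adjusted p = 5.93e-05). CCNB1 (chr5:68462962-68474072 in GRCh37), which encodes cyclin B1, went the other way. It was at 200.2, 202 and 199 CPM in WT control and 27.6, 32.05 and 30.8 CPM with etoposide, against 172, 171 and 180.4 CPM and 14.8, 13.3 and 13.2 CPM in ATRX_KO (−0.93 ± 0.11, adjusted p = 4.89e-05). TOP2A, the target of etoposide, fell from 2302 ± 33.5 to 151 ± 8.56 CPM in WT and from 1967 ± 60.8 to 124 ± 8.18 CPM in ATRX_KO, with an interaction of −0.06 ± 0.10 (adjusted p = 0.721). PLK1, a mitotic kinase, was likewise not called (−0.19 ± 0.13, adjusted p = 0.373). The number of higher mitosis genes ranged from 5 without WT etoposide replicate 1 to 13 without ATRX_KO etoposide replicate 3.

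Replication and repair machinery showed no common direction. Of 43 replication genes, 35 fell in WT and 39 in ATRX_KO, and the interaction was lower for 6 and higher for 4. GINS2, a subunit of the replicative helicase, was at 58.1, 56.9 and 59.8 CPM in WT control and 30.3, 30.8 and 31.9 CPM with etoposide, and at 37.4, 38.8 and 31.97 CPM and 11.7, 12.3 and 13.3 CPM in ATRX_KO. It fell further in the knockout (−0.62 ± 0.13, adjusted p = 0.00428). RRM2, the S-phase subunit of ribonucleotide reductase, fell by 0.57 in WT and by 0.09 in ATRX_KO, from 760.0 ± 14.1 and 473 ± 26.8 CPM (0.48 ± 0.10, adjusted p = 0.00324). E2F8, a repressor of the E2F family, was also less repressed (1.08 ± 0.24, adjusted p = 0.00571). MCM2 (0.14 ± 0.10, adjusted p = 0.374) and PCNA (−0.40 ± 0.27, adjusted p = 0.355) were not called. The number of lower replication genes was 1 without WT etoposide replicate 2 and 8 without ATRX_KO etoposide replicate 1.

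Of 24 genes of homologous recombination and the Fanconi pathway, 22 fell in WT and 23 in ATRX_KO, and the interaction was higher for 5 and lower for 2. FANCL, the ubiquitin ligase of the Fanconi core complex, was at 31.8, 31.9 and 34.2 CPM in WT control and 8.77, 8.39 and 6.21 CPM with etoposide, and at 58.9, 70.3 and 59.2 CPM and 22.8, 29.4 and 35.9 CPM in ATRX_KO. The knockout was higher in both conditions (0.97 ± 0.21, adjusted p = 0.00567). RBBP8, which encodes the resection factor CtIP, was higher in the knockout with etoposide, at 52.5 ± 6.89 against 29.6 ± 2.01 CPM (0.65 ± 0.13, adjusted p = 0.0024). BRCA1, a scaffold of recombination repair, was not called (−0.19 ± 0.12, adjusted p = 0.289). Of 21 damage signalling and topoisomerase genes the interaction was higher for 3 and lower for 1, near the 8.36% and 7.64% of all genes. H2AX, the histone phosphorylated at breaks, fell by 2.42 in WT and by 1.21 in ATRX_KO (1.21 ± 0.21, adjusted p = 0.00124). RNF168, a ubiquitin ligase acting at breaks, ended at 12, 13.1 and 11.8 CPM in WT and at 22.7, 25.6 and 28.5 CPM in ATRX_KO (0.88 ± 0.16, adjusted p = 0.00191). RAD50, a subunit of the MRN break sensor, rose only in WT, from 218 ± 5.70 to 318 ± 2.74 CPM (−0.52 ± 0.10, adjusted p = 0.00281). ATM (−0.05 ± 0.18, adjusted p = 0.894) and CHEK1 (−0.28 ± 0.19, adjusted p = 0.342) were not called.

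Inflammatory genes were mostly higher in the knockout before the drug. Of 20 tested, 14 were higher in ATRX_KO in control and 4 lower, against 20.8% and 21.0% of all genes, with a median difference of 2.09, and the interaction was lower for 3 and higher for 2. TNFAIP3, a brake on NF-kB, was at 2.02, 1.78 and 2.96 CPM in WT control and 10.7, 10.1 and 11.5 CPM with etoposide, and at 8.86, 17.3 and 19.04 CPM and 18.05, 18.97 and 17.9 CPM in ATRX_KO (−1.98 ± 0.34, adjusted p = 0.00102). RELB, an NF-kB subunit, was also less induced (−0.94 ± 0.24, adjusted p = 0.0149). CXCL8, a neutrophil chemokine, varied widely in the knockout, at 6.6, 25.7 and 51.6 CPM in control and 73.6, 51.0 and 32.4 CPM with etoposide, and no interaction was detectable (−0.63 ± 0.83, adjusted p = 0.663). Of 25 interferon-stimulated genes the interaction was lower for 5 and higher for 1, and 3 were lower without WT control replicate 3. IFI44L was at 10.3, 11.95 and 11.2 CPM and 13.7, 14.1 and 12.8 CPM in WT, and fell from 64.7, 66.5 and 84.0 CPM to 35.5, 36.5 and 33.8 CPM in ATRX_KO (−1.31 ± 0.16, adjusted p = 5.71e-05). OAS3, a sensor of double-stranded RNA, fell only in the knockout (−0.75 ± 0.15, adjusted p = 0.00361), and SAMD9, an antiviral gene, fell in WT and rose in ATRX_KO (0.67 ± 0.12, adjusted p = 0.00127). ISG15 (0.02 ± 0.41, adjusted p = 0.982) and IFIT1 (−0.10 ± 0.38, adjusted p = 0.898) were not called.

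Metabolic and growth factor lists were mixed. Of 23 genes of cholesterol synthesis the interaction was lower for 4 and higher for 1. MVK, mevalonate kinase, rose in WT from 20.3 ± 1.63 to 27.4 ± 1.76 CPM and fell in ATRX_KO from 33.2 ± 1.84 to 23.6 ± 1.43 CPM (−0.93 ± 0.14, adjusted p = 0.000323). EBP, a sterol isomerase, fell further in the knockout (−0.55 ± 0.12, adjusted p = 0.00411), and HMGCS1, the synthase at the head of the pathway, was not called (−0.09 ± 0.22, adjusted p = 0.834). Of 21 glycolysis genes the interaction was lower for 2, ENO1 (−0.37 ± 0.10, adjusted p = 0.0182) and ENO2 (−0.39 ± 0.12, adjusted p = 0.0428), both enolases whose calls were lost in some settings, and no glycolysis gene was lower without WT control replicate 2. SLC16A3, a lactate exporter, was higher (0.94 ± 0.15, adjusted p = 0.00075). Of 19 TGF-beta and YAP responsive genes the interaction was lower for 2, the kinase receptor AXL (−0.58 ± 0.09, adjusted p = 0.000687) and the matricellular CCN1 (−0.69 ± 0.17, adjusted p = 0.00949), and higher for 3, or for 1 without WT etoposide replicate 3. ID1, a target of BMP signalling, was among the latter, at 632, 606 and 594 CPM in WT control against 295, 154 and 190.3 CPM in ATRX_KO (0.91 ± 0.22, adjusted p = 0.0091).

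A stronger response in ATRX_KO was rare. The 32 genes of stronger induction had medians of 1.04 in WT and 2.10 in ATRX_KO. NFATC2 (chr20:50003494-50179370 in GRCh37), a calcium-regulated transcription factor, was at 5.98, 5.85 and 4.48 CPM in WT control and 12.3, 14.1 and 14.4 CPM with etoposide. In ATRX_KO it was at 1.22, 1.92 and 1.27 CPM and at 14.9, 10.8 and 10.2 CPM. The knockout began lower and caught up, with an interaction of 1.70 ± 0.30 (adjusted p = 0.00125). ABLIM1, an actin-binding protein, and MSC, a bHLH repressor, also began lower, with interactions of 1.33 ± 0.15 (adjusted p = 2.2e-05) and 1.29 ± 0.28 (adjusted p = 0.00495). ATP6V0D2, a subunit of the proton pump, rose by 3.08 in WT and 4.12 in the knockout (1.04 ± 0.17, adjusted p = 0.000861). IL11, a cytokine of the IL-6 family, reached 109, 111 and 106 CPM in ATRX_KO against 58.8, 64.0 and 56.9 CPM in WT. However, its control level in ATRX_KO was 12.8, 39.0 and 43.3 CPM, with replicate 1 apart, and the call (1.18 ± 0.35, adjusted p = 0.0302) was lost with DESeq2 (adjusted p = 0.0857) and without some single libraries, for example at 1.22 (adjusted p = 0.0525) without WT control replicate 2. The class held 17 genes without WT control replicate 1.

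The 43 genes of stronger repression had medians of −0.49 and −1.0. Besides CCNB1, they included RNASEH2A, the catalytic subunit of the enzyme that removes ribonucleotides from DNA. It was at 127, 138 and 141 CPM in WT control and 119, 118 and 116 CPM with etoposide, and it went from 117, 116 and 111 CPM to 59.5, 57.3 and 55.4 CPM in ATRX_KO. Only the treated knockout stood clearly apart (−0.80 ± 0.10, adjusted p = 5.47e-05). POC1A, a centriole protein (−0.75 ± 0.13, adjusted p = 0.00113), and PIF1, a helicase (−0.82 ± 0.18, adjusted p = 0.00544), were further members. KIF18A, a mitotic kinesin (−0.75 ± 0.22, adjusted p = 0.0277), lost its call without some single libraries, for example at −0.72 (adjusted p = 0.062) without WT control replicate 2. The class held 21 genes without WT etoposide replicate 3 and 57 without ATRX_KO etoposide replicate 1.

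A reversed response was called for 99 genes, 56 induced and 43 repressed in WT. TIMP3 (chr22:33197691-33259028 in GRCh37), an inhibitor of matrix metalloproteinases, was at 72.5, 61.0 and 60.1 CPM in WT control and rose to 170.1, 188 and 187 CPM. In ATRX_KO it fell from 23.97, 24.9 and 24.8 CPM to 17.6, 16.8 and 12.8 CPM. The gap between the cell types thus widened from −1.40 to −3.53 in log2, with an interaction of −2.14 ± 0.15 (adjusted p = 4.57e-07). ADAMTS1 (chr21:28208074-28217728 in GRCh37), a metalloproteinase that TIMP3 can inhibit, rose from 84.3, 68.7 and 63.8 to 155, 159.9 and 165 CPM in WT and fell from 101, 88.9 and 110.0 to 52.8, 57.9 and 46.1 CPM in ATRX_KO (−2.08 ± 0.15, adjusted p = 5.33e-07). STC2 (chr5:172741726-172755450 in GRCh37), a secreted glycoprotein of the stress response, rose from 121, 109.9 and 108 to 168, 170.1 and 164 CPM in WT and fell from 179.8, 173 and 155 to 85.2, 86.3 and 102 CPM in the knockout (−1.46 ± 0.12, adjusted p = 1.49e-06). In ADAMTS1 and STC2 the knockout was the higher cell type before the drug and the lower one after it. In the WT libraries of the DAXX series, ADAMTS1 fell instead, by 0.46 (adjusted p = 0.000177), while TIMP3 rose by 1.27 and STC2 by 0.22 (adjusted p = 7.78e-11 and 0.0117).

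INKA2-AS1 (chr1:112282201-112290420 in GRCh37), an antisense RNA, had the largest reversed value among genes with at least 10 counts in every library and 10 CPM in a group. It was at 1.71, 0.932 and 1.69 CPM in WT control, 4.89, 6.39 and 5.11 CPM with etoposide, 88.0, 114 and 89.8 CPM in ATRX_KO control and 30.7, 32.7 and 38.3 CPM with etoposide (−3.42 ± 0.27, adjusted p = 1.14e-06). Strand use in the counting is not given in the sources used here, so its reads and those of an overlapping gene may not be told apart. RTN1, a reticulon of the endoplasmic reticulum, was likewise switched up in ATRX_KO control, at 27.9 ± 2.43 against 1.97 ± 0.464 CPM (−2.05 ± 0.25, adjusted p = 6.01e-05). RGS4, a regulator of G protein signalling, reversed the other way, from 61.3 ± 1.48 to 22.4 ± 3.12 CPM in WT and from 3.66 ± 0.818 to 5.39 ± 1.28 CPM in ATRX_KO (2.00 ± 0.24, adjusted p = 5.47e-05). The WT response of these classes was compared with the WT libraries of the DAXX series. Of the 56 reversed genes induced in WT, 16 were induced there, 7 repressed and 33 not called, whereas of 1015 tested genes of weaker induction 887 were induced there and 2 repressed. Of the 43 reversed genes repressed in WT, 25 were repressed there, 1 was induced, 16 were not called and 1 was not tested. These counts are given as a description.

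Of 200 genes that responded in ATRX_KO only, 97 rose and 103 fell. In the WT libraries of the DAXX series, 35 of the 189 tested there were induced and 38 repressed. The name of the class hence refers to the WT libraries of the ATRX series. KALRN (chr3:123752216-124445172 in GRCh37), a guanine nucleotide exchange factor, was at 12.9, 12.97 and 14.7 CPM in WT control and 14.96, 13.9 and 16.7 CPM with etoposide. In ATRX_KO it rose from 2.17, 3.09 and 2.70 to 13.2, 11.97 and 14.5 CPM, near the WT level (2.14 ± 0.22, adjusted p = 9.82e-06). GPRC5C, an orphan receptor, rose from 2.19 ± 0.638 to 12.7 ± 1.36 CPM in the knockout but stayed below WT, at 26.9 ± 1.18 CPM (2.32 ± 0.23, adjusted p = 9.82e-06). The histone gene H2BC5 (2.12 ± 0.26, adjusted p = 5.29e-05) and the oxysterol receptor NR1H2 (1.39 ± 0.26, adjusted p = 0.00203) ended above WT instead. H2BC5 belongs to a family of near-identical histone genes, so its counts may include reads of its relatives. ADAMTS6, a metalloproteinase, fell in ATRX_KO from 26.4, 22.3 and 28.6 to 10.3, 8.37 and 6.78 CPM (−1.48 ± 0.24, adjusted p = 0.000583). It also fell in the WT libraries of the DAXX series, by 1.28 (adjusted p = 2.05e-05), next to a response of −1.61 in ATRX_KO and −0.12 in the WT of its own series. The 7 genes with neither response called included MED16, MED24, DMAC1 and EXOSC5, whose calls (adjusted p = 0.0413, 0.0295, 0.0352 and 0.0432) were lost without some single libraries.

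The DAXX knockout, made in the same line and tested with its own WT libraries, is the nearest comparison. Its interaction was lower for 884 of 15039 genes tested in both series (5.88%) and higher for 1245 (8.28%). Of the 1015 genes of weaker induction in ATRX_KO that were tested there, 334 were called lower and 22 higher in the DAXX knockout, with a median interaction of −0.37. Of 1188 genes of weaker repression, 416 were called higher and 7 lower, with a median of 0.33. The difference of both interactions was called for 498 of 16181 genes (3.08%), lower in the ATRX series for 320 (1.98%) and higher for 178 (1.10%).

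Differences from the DAXX knockout were found in several functions. The counts of genes that differed are to be read against 1.98% lower and 1.10% higher among all genes. Among the 60 p53 targets, the DAXX interaction was also called lower for 27 and higher for 3. This compares with 5.88% and 8.28% of the genes tested in both series. The median DAXX interaction of these targets was −0.53, against −0.66 with ATRX_KO. The ATRX interaction was lower than that of DAXX for 7 of the 60. For CDKN1A the interaction was −1.55 with ATRX_KO and −0.47 with DAXX knockout, and the difference in the joint model was −1.06 (adjusted p = 6.9e-06). GDF15 (−1.04, adjusted p = 0.000208) and DDB2 (−0.75, adjusted p = 0.00673) differed in the same direction. For BBC3 (−0.03, adjusted p = 0.97) and TP53INP1 (−0.05, adjusted p = 0.952) no difference was detectable. In the list of the integrated stress and unfolded protein response, the median interaction was −0.44 with ATRX_KO and −0.01 with DAXX knockout. Of its 21 genes 5 differed, all lower with ATRX_KO. SLC3A2 had interactions of −1.16 and 0.18 (difference −1.32, adjusted p = 1.87e-07), and STC2 of −1.46 and 0.06 (difference −1.50, adjusted p = 1.51e-06). Ribosome biogenesis was similar, with 6 of 27 lower than with DAXX, among them RRP12 (−0.95, adjusted p = 0.0068) and RRP9 (−0.88, adjusted p = 0.00266).

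Of 40 mitosis genes, the ATRX interaction was lower than that of DAXX for 9 and higher for 1, against 1.98% and 1.10% of all genes. The DAXX interaction was called higher for 20 of them, against 8.28% of all genes tested in both series. Its median was 0.45, against 0.17 with ATRX_KO. CCNB1 had interactions of −0.93 and 0.44 (difference −1.35, adjusted p = 8.28e-05), and PLK1 of −0.19 and 0.69 (difference −0.86, adjusted p = 0.0124). AURKB (0.81, adjusted p = 0.0205) and LBR (1.06, adjusted p = 0.000833) differed the other way. Large positive differences were found in KALRN (2.72, adjusted p = 2.99e-06), RGS4 (2.64, adjusted p = 1.12e-06), NFATC2 (2.60, adjusted p = 0.000196) and GPRC5C (2.48, adjusted p = 8.08e-06). Large negative ones were found in INKA2-AS1 (−2.45, adjusted p = 0.00384), ADAMTS6 (−2.28, adjusted p = 0.000833) and ADAMTS1 (−1.87, adjusted p = 1.01e-05). For ADAMTS1 the WT response was 1.15 in the ATRX series and −0.46 in the DAXX series, and for ADAMTS6 it was −0.12 and −1.28. A difference between the WT responses is hence part of both values. TIMP3, reversed in ATRX_KO, had a DAXX interaction of −1.6, and the difference was not called (−0.52, adjusted p = 0.162).

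**Figure D5:**
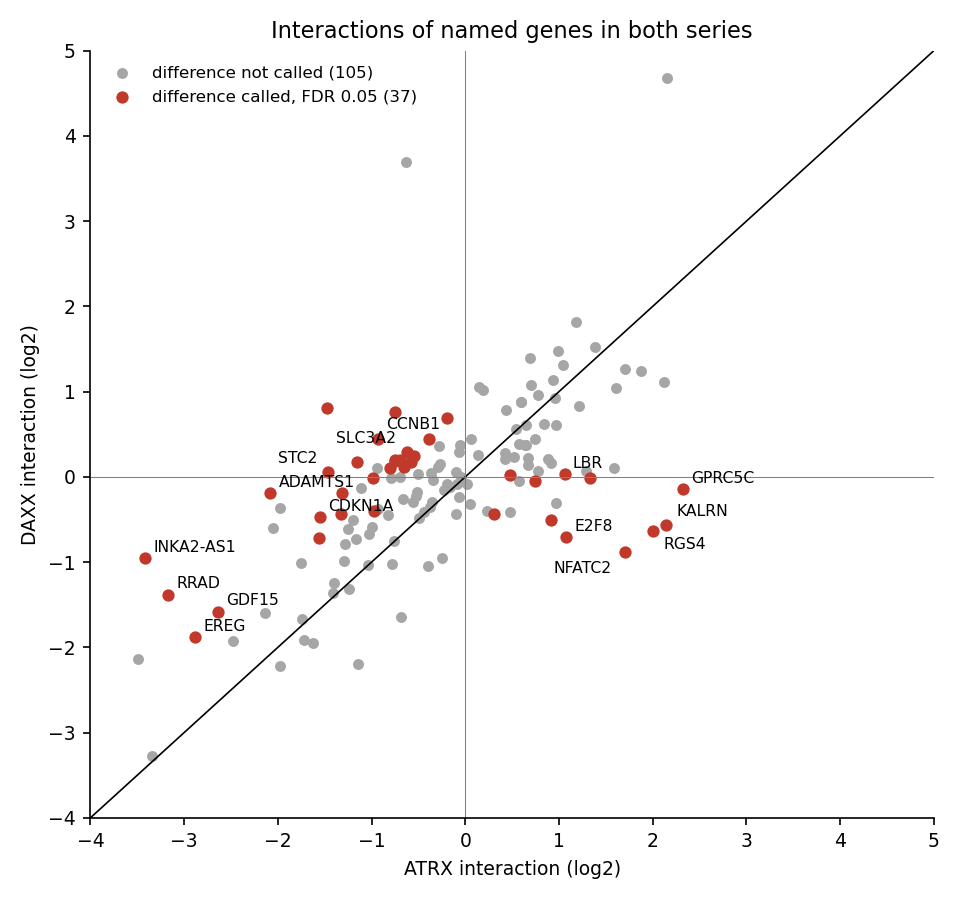
Interaction in the ATRX series (x axis) and the DAXX series (y axis), in log2, for 142 named genes, with the 37 genes whose interactions differed in the joint model coloured. The diagonal marks equal interactions. CDKN1A, SLC3A2 and STC2 lie above it, and KALRN, RGS4 and NFATC2 below it.

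Gene length and promoter letters were described for the classes. With genes ranked by span in the genome, the median WT response went from 0.23 in the shortest of 5 equal bins to −0.33 in the longest, that of ATRX_KO from 0.16 to −0.28, and the interaction from −0.02 to 0.06. Weaker repression was found in 6.85% of the shortest and 10.8% of the longest genes, and weaker induction in 7.28% and 5.30%. The letters TTTGAA, the core of the cell cycle element CHR, were found on either strand in 21 of 34 matched mitosis promoters (61.8%), 10.2% of the genes tested and 11.7% of the genes of weaker repression. The AP-1 letters TGACTCA or TGAGTCA were found in 6.61% of promoters of weaker induction, 3.22% of weaker repression and 3.60% of the genes tested. These shares are descriptions and no test was made of them.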

How the data were processed

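The authors made QuantSeq 3′ mRNA libraries, sequenced 75-base single-end reads, aligned them with STAR to hg19 and estimated counts per Ensembl GRCh37 gene with RSEM (1.2.3 per the labels). The deposited values are these expected counts as whole numbers, without normalization. Groups followed the sample titles. A genotype tag of the DAXX knockout libraries names ATRX, and the titles were followed.

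Symbols came from GENCODE placed on GRCh37 (55501 of 57736 IDs, 98.78% of counts). edgeR 4.0.16 (R 4.3.3) was used with TMM scaling (factors 0.9542 to 1.067), filterByExpr (minimum count 10, total 15) and 1 quasi-likelihood fit of 12 libraries and 4 groups. Benjamini-Hochberg adjustment ran over all genes tested, and an adjusted p under 0.05 was called. A joint fit of 24 libraries and 8 groups tested the difference from DAXX. CPM use TMM-scaled totals. Replicates differed beyond counting noise, with a chi-square per degree of freedom of 2.47 to 8.33 in the WT groups. It was 6.07 to 17.1 in the knockout groups, while the fit shared 1 estimate of spread per gene over all 4 groups. The fit was tested on simulated data.

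Classes, 26 gene lists (566 entries, 5 not matched) and named genes were chosen with earlier results of these data known. The named genes were ATRX, the anchor genes of each list, up to 3 genes per list with the lowest interaction p among those called, and up to 5 per class with the largest interaction (at least 10 counts in every library and 10 CPM in a group). PTCHD4, MCC, DYNC2H1, LNCTAM34A and BCYRN1 were added after their values were seen. The values of some named genes are not reported here. Lists are described by counts and medians. Alternatives were DESeq2 1.42.0, RLE, library totals, other filters, all 24 libraries, a replicate block, other class thresholds and leaving out each library. The ChIP-seq and ATAC-seq samples were not used here.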

Additional observations from a re-analysis of the deposited data

Results flagged for a closer look

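WT and ATRX_KO cells differed in their response to etoposide, by the test of the difference itself, for 2619 genes with edgeR's quasi-likelihood test. The difference between the ATRX and DAXX interactions was called for 500 genes of the joint fit, and 37 of 144 named genes were among them. The values below are the ATRX interaction minus the DAXX interaction in log2.

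The ATRX interaction was lower for 26 named genes. Of the p53 targets and the largest losses of induction, CDKN1A differed by −1.06, GDF15 by −1.04, CYFIP2 by −0.82, DDB2 by −0.75, RRAD by −1.78 and EREG by −0.98. In the stress response, STC2 differed by −1.50, SLC3A2 by −1.32 and DDIT3 by −0.88, and the autophagy receptor SQSTM1 by −0.55. Among cell cycle and replication genes, KIF18A differed by −1.50, CCNB1 by −1.35, POC1A by −0.93, GINS2 by −0.90, RNASEH2A by −0.89 and PLK1 by −0.86. RRP12 differed by −0.95 and RRP9 by −0.88, both of ribosome biogenesis. Metabolic genes were ENO2 at −0.81 and EBP at −0.77. The interferon genes IFI44L and OAS3 differed by −1.10 and −0.92, and the receptor AXL by −0.74. INKA2-AS1 at −2.45, ADAMTS6 at −2.28 and ADAMTS1 at −1.87 had the lowest values of the named genes.

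The ATRX interaction was higher for 11 named genes. KALRN at 2.72, RGS4 at 2.64, NFATC2 at 2.60 and GPRC5C at 2.48 had the highest values of the named genes. Others were E2F8 at 1.81, ID1 at 1.43, ABLIM1 at 1.36, LBR at 1.06, AURKB at 0.81, FN1 at 0.76 and RRM2 at 0.48. The WT libraries of each series are separate, so a difference between the WT responses of both series enters these values, and its part in the result was not tested.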

How the results depend on the processing

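The number of interaction genes was between 2248 and 3079 under every alternative other than leaving out a library, and the retained response ranged from 65.0% to 73.4% in either direction. Scaling by library totals alone moved the retained induction to 73.4% and the retained repression to 65.0%, at least 10 counts in every library moved the former to 68.2%, and responders of any fold to 66.4%. With a WT response of at least 2-fold, the classes held 659 genes of weaker induction, 770 of weaker repression, 17 of stronger induction, 7 of stronger repression, 18 reversed and 603 of ATRX_KO only. With an interaction of at least 2-fold they held 389, 154, 17, 1, 45 and 55. The first threshold counts smaller WT responses as none, which moves genes to the last class by construction. Without a filter on counts, 752 genes differed between ATRX and DAXX, and the cause was not tested.

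Leaving out 1 library gave 1880 to 2867 interaction genes, 389 to 691 genes that differed from DAXX, 17 to 38 genes of stronger induction, 21 to 57 of stronger repression and 68 to 119 reversed. Of 111 called named genes, 95 kept call and direction without any 1 library and 16 lost the call without at least 1. Of the genes not called, 9 gained a call, and 10 changed sign. Without 1 library, the range was −0.13 to 0.08 for ATM, −0.16 to 0.03 for ATRX, −0.34 to 0.03 for COL1A1, −1.10 to 0.16 for CXCL8, −0.25 to 0.06 for HMGCS1, −0.24 to 0.05 for IFIT1, −0.45 to 0.22 for ISG15, −0.12 to 0.15 for NFKBIA, −0.21 to 0.02 for RPS6 and −0.11 to 0.01 for TOP2A. None of these was called with all 12 libraries.

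Libraries with the same replicate number did not deviate together (r = −0.576 to 0.211 over 18 pairs), so the numbers were not taken as pairing. A replicate block called 2248 interaction genes, 916 of weaker induction and 1014 of weaker repression, and ISG15 was at −0.02. It left 137 of 144 named genes with the same sign and side of the threshold, while DMAC1, ENO2, EXOSC5, MED16, MMP1 and PTCHD4 lost their call.

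Precision is limited by 3 libraries per group from 1 clone, and p-values cover the spread between libraries only. Genes at a few counts in control, such as BTG2, have imprecise interactions, and a gene that was not called is not shown to respond alike.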
